A study of Mus musculus with 11 samples.

Results

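The genes described here encode the nuclear part of the mitochondrial respiratory chain. Members were the genes of the count table whose mouse symbol begins with Ndufa, Ndufb, Ndufc, Ndufs, Ndufv, Uqcr, Cox4 to Cox8 or Atp5, or is Sdha, Sdhb, Sdhc or Sdhd, with a mean of at least 1 CPM (counts scaled by library size). Of 22369 genes in the table, 94 matched by symbol and 89 reached that level, beside 12479 genes of the whole table that reached it. Among the 89 members, 80 encode subunits: 36 of complex I, 4 of complex II, 8 of complex III, 16 of complex IV and 16 of complex V. Ndufa4, its paralogue Ndufa4l2 and the supercomplex factor Cox7a2l were counted with complex IV. The other 9 were 8 complex I assembly factors of the Ndufaf series and Atp5s, and they entered only the counts over all members. The 5 genes below the level were Cox8c, Cox4i2, Cox7b2, Cox8b and Atp5l-ps1.

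Messenger RNA had been sequenced in 11 clonal lines of EBRTcH3 mouse embryonic stem cells, with 1 library for each line. Each line, called here clone 16 to clone 26 after its label, was grown from 1 cell colony after transfection with a library of barcoded piggyBac reporters driven by the mouse Pgk1 promoter (mPGK) and sorting for high eGFP. All clones carried the tetracycline-controlled transactivator at ROSA26 and were kept in BRL-conditioned medium with leukemia inhibitory factor, the MEK inhibitor PD0325901 and the GSK-3 inhibitor CHIR99021. The labels give 1 group and no treatment, so the clones can only be compared with each other, and the spread within a clone cannot be told apart from the spread between clones.

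Complexes I and II pass electrons from NADH and succinate to ubiquinone, complex III hands them on to cytochrome c, and complex IV transfers them to oxygen. Complexes I, III and IV pump protons, and complex V, the ATP synthase, lets them flow back to make ATP. Complexes I, III, IV and V combine nuclear subunits with subunits encoded by mitochondrial DNA, whereas complex II is wholly nuclear, and its 4 genes also serve the tricarboxylic acid cycle. Naive mouse embryonic stem cells use both oxidative phosphorylation and glycolysis. The mitochondrial-encoded subunits were not analysed here.

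Library depth, as the sum of gene counts, lay between 10846005 (clone 16) and 16868500 (clone 23), and a floor of 3 counts corresponded to 0.173 to 0.284 CPM. The 7 embryonic stem cell markers were present in every clone, with summed levels of 6096 to 7918 CPM. The 6 markers of cardiac and skeletal muscle summed to 1.5 to 6.41 CPM (Ckm at most 0.331), the 6 of fibroblasts to 9.45 to 25.8 CPM, and the 5 of primitive endoderm to 163 to 476 CPM, nearly all from Sparc.

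Several transcription factors are known to act on respiratory chain promoters, among them NRF1, the ETS factor GABP and YY1. The 5 promoters shown here were picked with the values known. Whether the motifs go with the movement of members over the clones, described below, was not tested. Ndufa6, Uqcrc1, Cox6b1 and Atp5j stand for complexes I, III, IV and V. Each was the subunit most correlated with its own complex among those whose window holds a searched motif. These 4 windows therefore hold a match by choice, and subunits without a match could not be picked. Cox7a2, which shared the highest correlation in complex IV with Ndufa4 (0.88 each), was added whatever its window held. Each window runs from 250 bases before to 50 bases after the start of the gene, 5′ to 3′ in the sense of the gene, from RefSeq on GRCm38.p6, with matches to the searched motifs in capitals.
Ndufa6, chr15:82354242-82354541, minus strand, 1 NRF1 match: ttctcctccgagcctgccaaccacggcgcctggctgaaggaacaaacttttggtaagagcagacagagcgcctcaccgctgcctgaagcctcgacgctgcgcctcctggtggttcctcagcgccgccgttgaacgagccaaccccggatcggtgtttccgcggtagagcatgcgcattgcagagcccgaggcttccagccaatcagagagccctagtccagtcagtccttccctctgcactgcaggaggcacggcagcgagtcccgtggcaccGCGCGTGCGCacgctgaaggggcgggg
Uqcrc1, chr9:108936398-108936697, plus strand, 2 NRF1 matches: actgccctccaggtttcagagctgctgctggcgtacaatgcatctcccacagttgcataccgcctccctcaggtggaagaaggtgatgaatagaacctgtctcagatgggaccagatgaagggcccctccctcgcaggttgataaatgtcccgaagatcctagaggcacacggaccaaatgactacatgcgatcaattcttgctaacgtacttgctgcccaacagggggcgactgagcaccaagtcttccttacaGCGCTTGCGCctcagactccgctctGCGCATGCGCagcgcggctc
Cox6b1, chr7:30626065-30626364, minus strand, 1 ETS match: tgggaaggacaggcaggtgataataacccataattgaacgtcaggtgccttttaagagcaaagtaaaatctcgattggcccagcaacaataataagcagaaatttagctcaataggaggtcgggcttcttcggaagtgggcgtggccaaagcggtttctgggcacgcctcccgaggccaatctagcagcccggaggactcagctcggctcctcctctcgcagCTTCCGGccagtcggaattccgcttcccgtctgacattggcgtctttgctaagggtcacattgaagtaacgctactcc
Atp5j, chr16:84834927-84835226, minus strand, 1 YY1 match followed by 1 ETS match: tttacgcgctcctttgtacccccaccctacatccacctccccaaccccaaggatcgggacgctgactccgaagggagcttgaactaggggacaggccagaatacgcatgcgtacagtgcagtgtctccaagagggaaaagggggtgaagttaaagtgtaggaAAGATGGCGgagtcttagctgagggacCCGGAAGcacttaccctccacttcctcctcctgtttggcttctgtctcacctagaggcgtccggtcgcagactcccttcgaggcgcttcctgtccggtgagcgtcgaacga
Cox7a2, chr9:79759804-79760103, minus strand, no match: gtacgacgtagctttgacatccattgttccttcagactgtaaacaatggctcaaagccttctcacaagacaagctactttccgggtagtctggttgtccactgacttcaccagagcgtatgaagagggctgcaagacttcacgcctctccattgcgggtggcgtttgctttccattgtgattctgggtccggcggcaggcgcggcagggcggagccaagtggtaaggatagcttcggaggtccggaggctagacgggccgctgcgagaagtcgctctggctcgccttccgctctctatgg

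Of the 80 subunit genes, 65 had such a window, with 70 windows in all. The NRF1 motif was searched as GCGCA, any 1 base and GCGC, the ETS motif as CCGGAAG and the YY1 motif as AAGATGGCG, each on both strands. The YY1 and ETS motifs were counted separately, and any overlap between them was allowed. The NRF1 motif stood in 18 of 70 windows (25.7%), against 4.60% of the 32851 windows of all genes. The ETS motif stood in 16 windows (22.9%, against 8.86% of all) and the YY1 motif in 7 (10.0%, against 1.4%). At least 1 of the 3 motifs was found in 35 windows (50%), against 13.6% of all windows. The windows of all genes were neither limited to expressed genes nor matched for base composition. Whether the higher shares are particular to the subunit genes was therefore not tested. A match of letters is not a measured binding site, and no binding was measured here. In Atp5j the YY1 match begins 88 bases and the ETS match 61 bases before the start, and in Uqcrc1 both NRF1 matches lie within the first 50 bases of the transcript.

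Among the nuclear subunit genes, Atp5b and Atp5a1 of the ATP synthase had the highest levels. Levels between genes are compared only as CPM per kilobase of the principal annotated transcript (CPM per kb), as mean ± SD over the 11 clones. Atp5b and Atp5a1, the catalytic beta and the alpha subunit of the F1 head, stood at 1127 ± 127 and 549.8 ± 52.0 CPM per kb. Cox4i1, Cox8a and Cox6a1 of complex IV followed at 411 ± 54.9, 355 ± 102 and 326 ± 55.3 CPM per kb. The median over subunits was 50.9 CPM per kb in complex I, 76.2 in complex II, 86.2 in complex III, 84.2 in complex IV and 121 in complex V. This order depended on the length used: with the union of all annotated exons the medians were 34.0, 57.0, 55.6, 42.9 and 42.6, and complex I was the lowest under both.

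Within complex I, the levels per kb spanned 2.69 to 178. The accessory subunits Ndufa7 and Ndufa6 were highest, at 178 ± 21.7 and 146 ± 41.0 CPM per kb. Ndufs1, the core subunit with several iron-sulfur clusters, stood at 53.9 ± 3.42, and Ndufv1, which holds the NADH site, at 82.1 ± 16.9. The 7 core subunits had a median of 53.9 CPM per kb and the 29 accessory subunits one of 47.2. Ndufb2 and Ndufb4 were lowest, at 2.69 ± 0.392 and 5.60 ± 0.930. These values rest on principal transcripts of 2413 bases for Ndufb2 and 971 for Ndufb4. For Ndufb4, 37.0% of the 50-base windows of its transcript also occur in transcripts of other genes, so its level is uncertain.

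In complex II, Sdha, the flavoprotein that oxidises succinate, led at 110.0 ± 6.36 CPM per kb, followed by Sdhd (80.4 ± 2.26), the iron-sulfur subunit Sdhb (72 ± 13.4) and the anchor Sdhc (25.2 ± 2.02). The SDs of Sdhb and Sdhd overlap in that order. In complex III, the core protein gene Uqcrc1 (172 ± 20.1), Uqcr10 (147 ± 27.9) and the second core protein Uqcrc2 (96.2 ± 8.39) were highest, and Uqcr11 (57.7 ± 10.6) and Uqcrb (54.9 ± 6.54) lowest. In complex V, Atp5g3, a gene of the c ring through which protons pass, stood at 222 ± 28.3, whereas Atp5l (20.1 ± 2.36) and Atp5g1 (7.62 ± 0.978) were lowest. The value of Atp5g1 rests on a principal transcript of 2675.5 bases, against 718.5 for Atp5g3. Of the windows of Atp5l, 68.5% are shared with other transcripts. In all, 12 of 80 subunit genes shared at least 20% of their windows and 42 shared none, and the sources used here do not say how reads with several matches were counted.

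**Figure D1:**
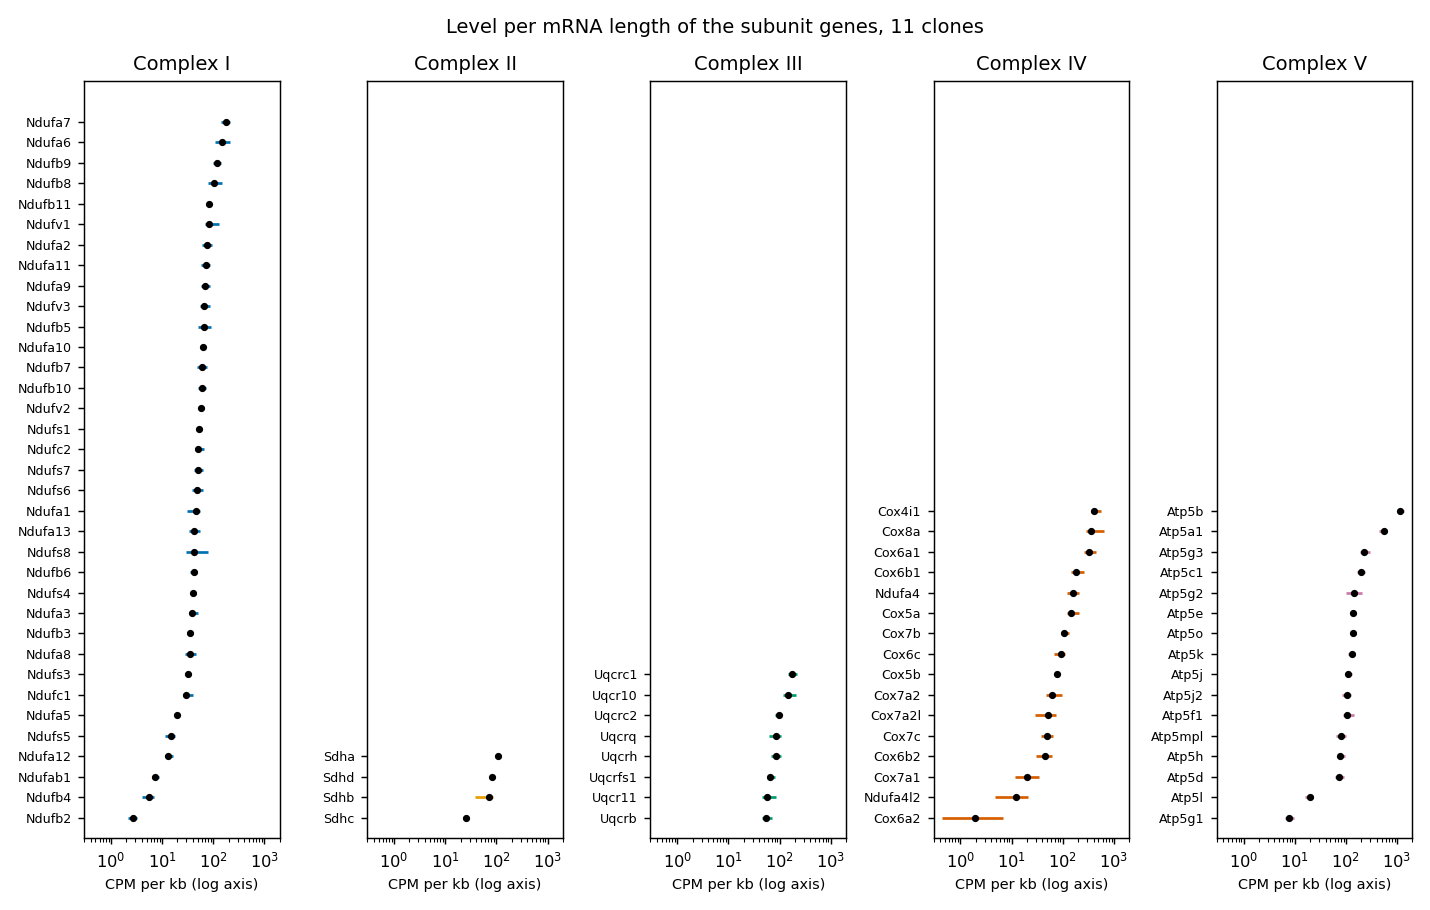
Level of the subunit genes by complex, all but 1 gene of complex I, in CPM per kb of the principal transcript on a log axis; the point is the mean over the 11 clones and the line runs from the lowest to the highest clone. Atp5b lies highest at a mean of 1127 CPM per kb, and the lowest genes of complex IV are Cox6a2 and Ndufa4l2.

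Several subunits of complexes IV and V exist in paired forms, one general and one known from particular tissues or conditions. The general form supplied most of each pair. Cox6b2, known from testis, gave 20.2 ± 4.30% of the per-length sum with Cox6b1 (SD, n = 11 clones), and Cox7a1, known from heart and skeletal muscle, gave 23.3 ± 5.34% of the sum with Cox7a2, with a highest share of 36.7% in clone 26. Ndufa4l2, known to be induced by low oxygen, gave 7.31 ± 3.21% of the sum with Ndufa4. The muscle form Cox6a2 gave 0.655 ± 0.690% of the sum with Cox6a1, with 2.55% in clone 16. Shares of Cox7b2 (0.772 ± 1.03%), Cox4i2 (0.237 ± 0.162%), Cox8b (0.0590 ± 0.0715%) and Cox8c (0.0148 ± 0.0213%) rested on at most 28, 22, 4 and 1 counts per clone. The identical mature c subunit is made from 3 genes, of which Atp5g3 gave 60.2 ± 6.73%, Atp5g2 37.7 ± 6.70% and Atp5g1 2.07 ± 0.284% of their sum. These shares depend on the lengths used, which were 718.5 bases for Atp5g3, 586 for Atp5g2 and 2675.5 for Atp5g1. Of the windows of Atp5g1, 10.6% are shared with transcripts of 163 other genes. The share of Atp5g2 was highest in clone 16, at 48.6%.

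Most members varied little between clones. On the scale of log2(CPM + 1), the median SD over clones was 0.18 for the subunits, against 0.24 for all tested genes and 0.19 for tested genes with at least 20 CPM, a level that 69 of the 80 subunits reached. The steadiest subunits by this SD were Sdhd in complex II (94.1 to 102 CPM, median 99.3), Ndufa5 in complex I (15.9 to 18 CPM, median 17.1), Atp5e in complex V (53.9 to 66.1, median 59.2), Cox5b in complex IV (59.9 to 74.0, median 68.4) and Uqcrc2 in complex III (152 to 206, median 182). In the goodness-of-fit test of edgeR, which asks whether a gene spreads more than genes of its abundance, 2 of 89 members (2.25%) were called at a Benjamini-Hochberg adjusted p of 0.05, against 7.68% of all tested genes. At an unadjusted p under 0.05 there were 5 members, against 13.1% of all tested genes.

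Both variable members were alternative forms of complex IV subunits. Cox6a2 was at 0.301 CPM in clone 25, had a median of 1.18 and reached 4.63 CPM in clone 16 (adjusted p = 0.0266). Clone 16 stood apart from the rest, whose highest level was 1.94 CPM in clone 18; these levels rest on 4 to 49 counts. Ndufa4l2 was at 4.36 CPM in clone 25, 4.90 in clone 26, 6.18 in clone 24 and 6.58 in clone 19, while the other 7 clones lay between 11.4 and 19.2 CPM (median of all clones 13, adjusted p = 0.0342). Neither call was stable: Cox6a2 had an adjusted p of 0.611 without clone 16 and 0.743 with the dispersion trend of DESeq2, and Ndufa4l2 one of 0.207 without clone 25. Cox6a2 also missed the threshold without clone 17, 25 or 26 (0.0549, 0.0970 and 0.0517), and Ndufa4l2 without clone 18, 22 or 26 (0.0784, 0.115 and 0.116).

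Each clone was then set against the other 10 with the edgeR quasi-likelihood test. Of 979 pairs of member and clone, 3 (0.306%) passed an adjusted p of 0.05, against 0.213% of the pairs of all tested genes (0.105% as higher levels). All 3 were higher in clone 17, where 0.425% of all tested genes were called higher, and all 3 genes lie on chromosome 19. At an unadjusted p under 0.05 there were 46 member pairs (4.70%), against 5.92% of all pairs. Cox8a, a small complex IV subunit, stood at 359 CPM in clone 17 and at 158 to 212 CPM in the other 10 (mean 179 ± 15.4). Its log2 fold change was 1.01 ± 0.13 (SE; edgeR adjusted p = 0.00946). Ndufv1 stood at 219 CPM in clone 17 and at 116 to 137 in the others (mean 128 ± 6.87), a log2 fold change of 0.77 ± 0.10 (edgeR adjusted p = 0.0129). Ndufs8, a core subunit with iron-sulfur clusters, was at 76.8 CPM in clone 17 and at 28.6 to 46.4 in the others (mean 37.2 ± 5.01), a log2 fold change of 1.05 ± 0.18 (edgeR adjusted p = 0.0430). In these 3 genes clone 17 held the highest level, as it did for 15.2% of all tested genes. The call of Ndufs8 was lost when any 1 of clones 16 and 18 to 24 was left out, with adjusted p up to 0.0806.

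Further members came close to the threshold without passing it. Sdhb was at 43.8 CPM in clone 19 and at 70.2 to 98.9 in the others (log2 fold change -0.97 ± 0.18, edgeR adjusted p = 0.0558). Atp5f1, a stalk subunit of the ATP synthase, reached 234 CPM in clone 16, the other 10 lying between 140 and 173 (0.56 ± 0.11 on the log2 scale, edgeR adjusted p = 0.0945). Cox4i1, the gene of the largest nuclear subunit of complex IV, reached 427 CPM in clone 22, the other 10 lying between 264 and 326 (0.51 ± 0.11, edgeR adjusted p = 0.0982). In these 3 genes the named clone held the lowest level (Sdhb) or the highest (Atp5f1 and Cox4i1). Over all tested genes, clone 19 was lowest in 15.6%, clone 16 highest in 13.4% and clone 22 highest in 10.1%. The Wald test of DESeq2 called 9 pairs, against 1.05% of all pairs: the 3 of clone 17, these 3, Ndufaf7 and Cox7a2l lower in clone 25, and Ndufa1 lower in clone 25.

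The next comparison asked whether members follow the chromosome part they lie in. For every gene and clone, the neighbourhood shift was the median deviation, on log2(CPM + 1) against the median clone, of the 12 nearest expressed genes on each side, with all members left out. A shift of at least 0.35 in size was called. Chromosome copy number was not measured here. Of 979 pairs of member and clone, 20 (2.04%) lay in a called neighbourhood, as did 2.74% of the pairs of other genes. They comprised 15 genes, 14 of them subunits: 8 of complex I, 1 of complex II, 3 of complex IV and 2 of complex V, and none of the 8 members of complex III. The cytochrome c1 gene Cyc1, on chromosome 15, does not match the symbol rule and was not among those 8. Just inside the threshold were Atp5g2 and Ndufa6 in clone 16 and Ndufa6 in clone 19, with shifts of 0.36, 0.37 and 0.39, and just outside was Ndufb2 in clone 19 (-0.28). Ndufb2 itself deviated there by 0.23, against the direction of its neighbours.

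In all 20 pairs the member deviated in the direction of its neighbours, as did 90.3% of the pairs of other genes in called neighbourhoods. With 6 genes on each side, 19 of 20 member pairs did so, and at a threshold of 0.25, 20 of 21. At the main settings, the median deviation in that direction was 0.65 for members and 0.53 for other genes. Where the neighbourhood was higher, it was 0.60 for the 17 member pairs and 0.49 for the others. Where it was lower, it was 0.96 for the 3 member pairs and 0.86 for the others. Subtracting from each member the mean deviation of the subunits outside called neighbourhoods in the same clone gave a median of 0.60. The 959 pairs of members outside called neighbourhoods had a median absolute deviation of 0.09, against 0.12 for other genes.

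Complex I gave 11 of the 20 pairs and 8 of the 15 genes, beside 36 of the 89 members. Ndufa6 alone entered with 4 of these pairs. Ndufa6, an accessory subunit on chromosome 15, had levels of 106 to 125 CPM in clones 16 to 19, while the other 7 clones had 62.8 to 71.9 CPM. Atp5g2, also on chromosome 15, had 98.5 to 123 CPM in clones 16 to 19, while the other 7 had 59.3 to 79.8 CPM. For both genes these clones did not overlap with the rest, a grouping read from these values. Of the 89 members 5 showed the same separation (with Ndufs7, Ndufa8 and Uqcrc2, named after their values were seen), as did 3.29% of all tested genes. The neighbourhood of Ndufa6 was shifted in all 4 clones (0.37 to 0.57), and that of Atp5g2 in clones 16, 18 and 19 (0.36 to 0.44) but by 0.04 in clone 17. The variable-gene test gave edgeR adjusted p of 0.136 for Ndufa6 and 0.245 for Atp5g2. On chromosome 3, Ndufb5 and Ndufc1, both accessory subunits, stood at 99.5 and 31.8 CPM in clone 16, above every other clone (highest 85.2 and 26.9, both in clone 19), beside Atp5f1 on the same chromosome.

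The 4 members of the shifted part of chromosome 19 in clone 17 were Cox8a, Ndufv1, Ndufs8 and Ndufb8. Their median deviation was 0.86, against 0.52 for 416 other genes there, and 0.64 after subtraction of the score of clone 17. Ndufb8, an accessory subunit, reached 102 CPM in clone 17, with the other 10 between 53.0 and 80.2 CPM. On chromosome 8 in clone 22, Cox4i1, Ndufb7 and Ndufa13 deviated by 0.50, 0.38 and 0.30, against a median of 0.48 for 634 other genes. Ndufb7 was highest in clone 22 (47.6 CPM), but Ndufa13 was higher in clones 17 and 19 (68.6 and 64.1 CPM) than in clone 22 (62.9 CPM).

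Lower neighbourhoods touched 3 members. Sdhb lies on chromosome 4, where the neighbourhood was lower in clone 19 by a shift of -1.0 and Sdhb deviated by -0.98. In clone 25, Cox7a2l and Ndufaf7 on chromosome 17 stood at 31.2 and 8.64 CPM, below every other clone (lowest 44.0 and 14.6 CPM), with deviations of -0.85 and -0.96. The median over 58 other genes of that part was a deviation of 0.81 in the lower direction. Cox7a2l is known as a factor of respiratory supercomplexes and Ndufaf7 as a methyltransferase needed for complex I assembly.

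**Figure D2:**
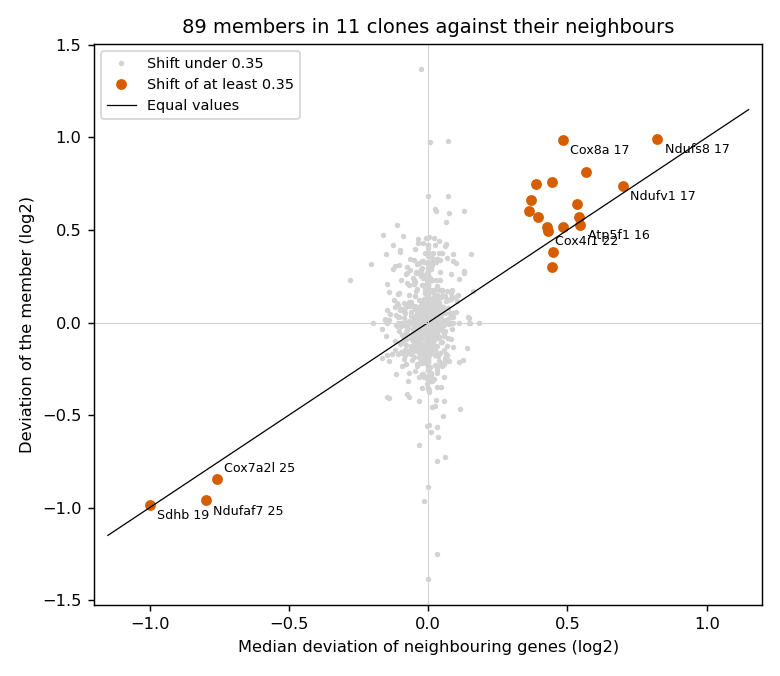
Deviation of each member from its median clone against the shift of its neighbourhood, both in log2 units, with 1 point per member and clone; pairs with a neighbourhood shift of at least 0.35 are orange, some with gene and clone beside them, and the diagonal marks equal values. All 20 orange points lie in the lower left or upper right, from -1.0 for the neighbourhood of Sdhb in clone 19 to 0.82 for that of Ndufs8 in clone 17.

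**Figure D3:**
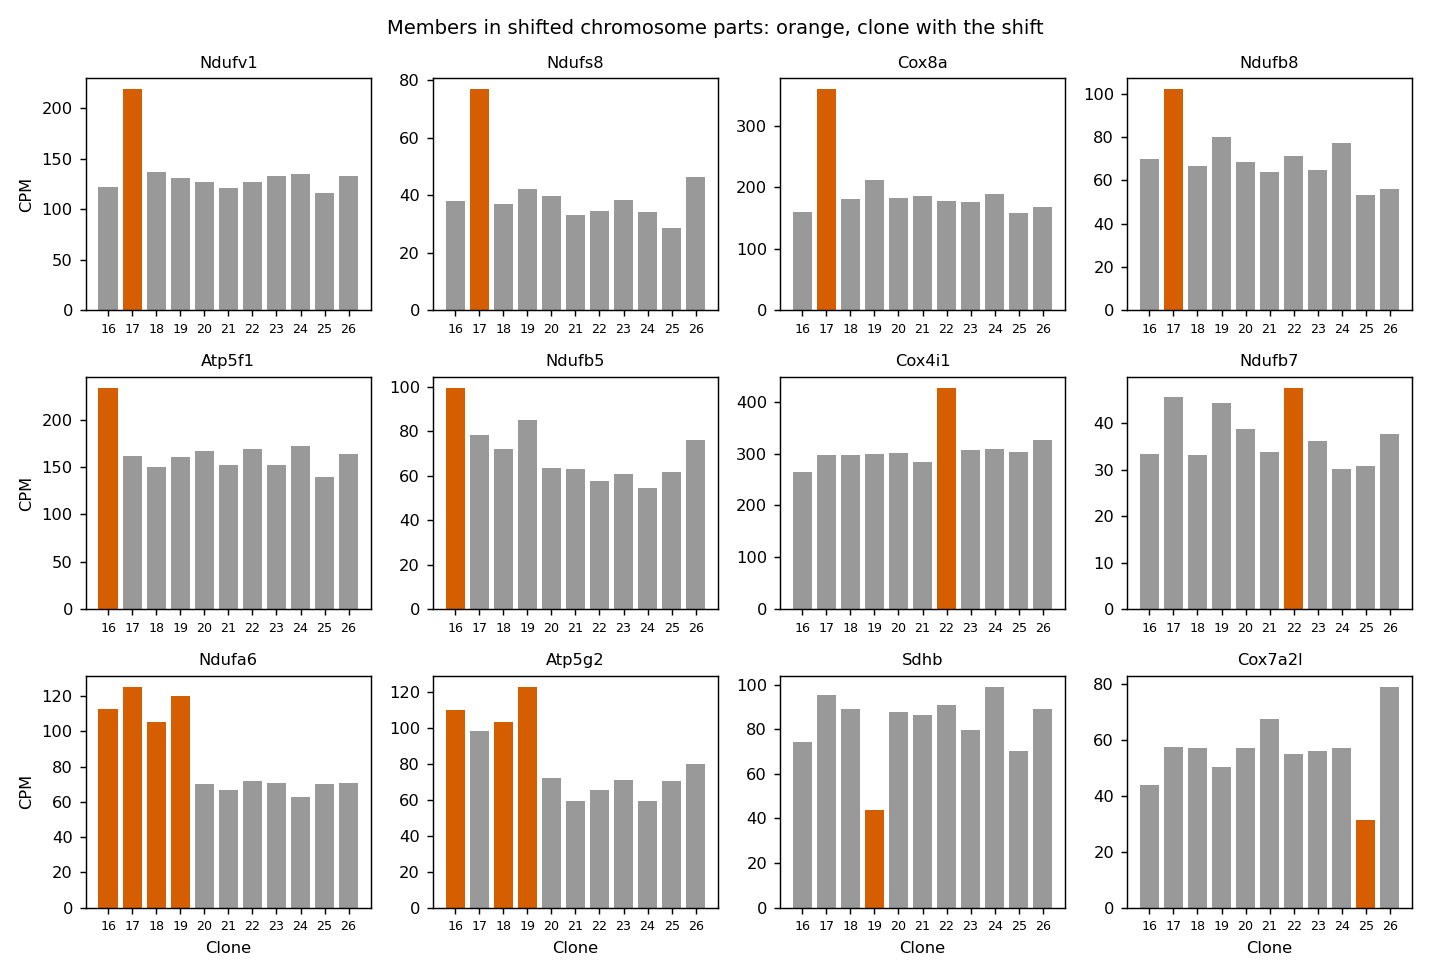
Level in CPM of 12 members that lie in called neighbourhoods, with 1 bar per clone and the clones with a called neighbourhood in orange. For Ndufa6, clones 16 to 19 (106 to 125 CPM) lie above the other 7 (62.8 to 71.9 CPM).

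Beside these local shifts, the subunits moved together over the clones. The score of a complex in a clone is the mean over its subunits of the deviation from the median clone, in log2 units. Over all 80 subunits it was highest in clone 17 (0.26) and clone 19 (0.14) and lowest in clone 25 (-0.18), with a median of 0.00 over the 11 clones. The mean over all tested genes stayed between -0.03 and 0.02. The subunits summed to 11419 CPM in clone 17, 9394 in the median clone and 8632 in clone 21, or 0.871 to 1.11% of all counts. Complex IV had the widest range, from -0.33 in clone 25 to 0.35 in clone 17. Its low value in clone 25 rested largely on Ndufa4l2 (-1.39), Cox7a2l (-0.85), Cox6a2 (-0.75) and Cox6b2 (-0.59). Without the 4 alternative forms and Cox7a2l, a choice made after the data were seen, the other 11 subunits ran from -0.15 in clone 25 to 0.43 in clone 17. Complex I ran from -0.14 to 0.25 and complex III from -0.20 to 0.24, with the same lowest and highest clones, and complex V from -0.12 in clone 21 to 0.22 in clone 17. Complex II ran from -0.25 in clone 19 to 0.05 in clone 18 and stood at 0.03 in clone 17. Without Sdhb, the member in a shifted neighbourhood, the range of complex II was 0.14 in place of 0.29.

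Clone 17 held the highest level of 36 of the 80 subunits (45%), against 15.2% of all tested genes. Of the 66 subunits outside called neighbourhoods in every clone, 30 were highest there, and their score still ran from -0.17 in clone 25 to 0.22 in clone 17. Clone 17 lay above the median clone for 69 of 80 subunits, against 47.5% of all tested genes. Clone 25 held the lowest level of 27 subunits, against 6.43% of tested genes, and lay below the median for 66, against 43.8%. By complex, 16 of 36 subunits of complex I, 2 of 8 of complex III, 8 of 16 of complex IV and 10 of 16 of complex V were highest in clone 17, the last including all 5 of the F1 head, and none of the 4 of complex II. Atp5b, for example, stood at 2643 CPM in clone 17, 2101 in the median clone and 1876 in clone 21. Uqcrc1 stood at 359 CPM in clone 17, 276 in the median clone and 242 in clone 21. Cox6a1 stood at 258 CPM in clone 17, 176 in the median clone and 149 in clone 16. Outside chromosome 19 none of the subunits was called in clone 17 by the edgeR test.

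**Figure D4:**
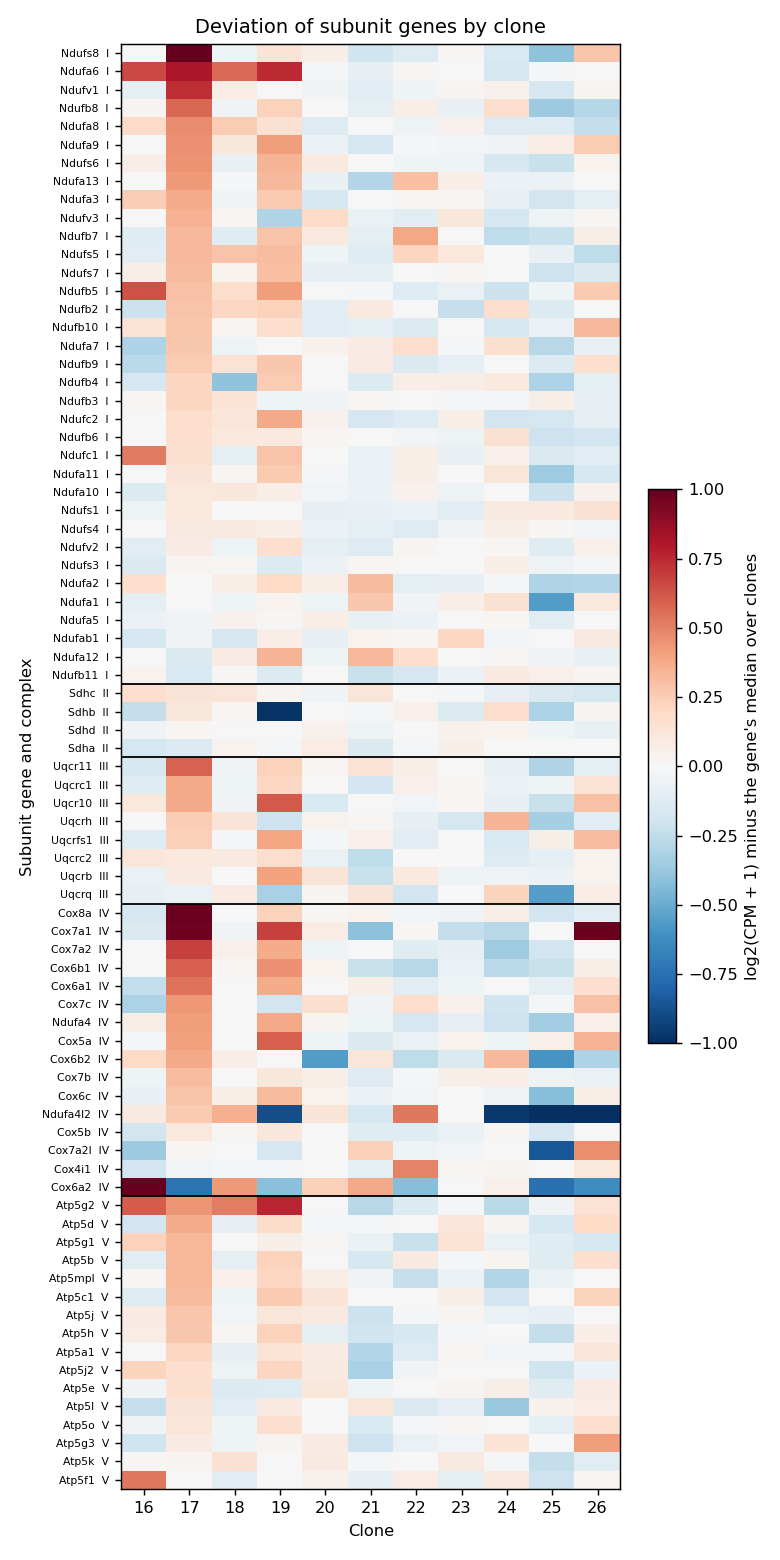
Deviation of each subunit from its median clone, all but 1 of complex I, in log2(CPM + 1) units, with subunits as rows of cells grouped by complex, red for higher and blue for lower, and the 11 clones as columns; colours end at 1 in either direction, so larger deviations look alike. Over all 80 subunits, clone 17 is above the median for 69 and clone 25 below it for 66, seen as a mostly red and a mostly blue column.

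Other features of the libraries moved with this score. Most subunit transcripts are short, 63 of 80 under 1500 bases. The median deviation of 1804 other genes with principal transcripts under 1500 bases was 0.10 in clone 17, 0.05 in clone 19 and -0.03 in clone 25. Clone 17 held the highest level of 24.3% of these short genes and clone 25 the lowest of 11.4%. Over the 11 clones this median followed the subunit score with a Pearson correlation of 0.95 and a Spearman correlation of 0.91, whereas the total counts gave a Spearman correlation of -0.05. The mean deviation of 17 glycolysis genes ran from -0.31 in clone 25 to 0.49 in clone 17 (Spearman 0.74), and the score of the embryonic stem cell markers was lowest in clone 17, at -0.34. The part of transcript length in the subunit score was not tested. These correlations describe 11 clones measured in the same libraries.

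Single subunits followed their complex to different degrees. The Spearman correlation of a subunit with the mean of the other subunits of its complex had a median of 0.68 in complex V, 0.49 in complex I, 0.39 in complex IV, 0.36 in complex III and -0.05 in complex II. Against the mean of all other subunits the median was 0.53, with 44 of 80 at 0.5 or above, whereas over 12390 other genes it was -0.02, with 15.4% at 0.5 or above. Over the short genes it was 0.19. Atp5j and Atp5a1 in complex V (0.91 and 0.90), Ndufa6 in complex I (0.89) and Cox7a2 in complex IV (0.88) were among the highest with their own complex. Ndufa6 lay in a called neighbourhood in clones 16 to 19, and the part of that shift in its correlation was not tested. Cox4i1 was lowest at -0.61, and the part of its high level in clone 22 in that value was not tested. All these values come from the same 11 libraries, and without clone 17 the median over the 80 subunits with their own complex fell from 0.42 to 0.29.

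The scores of complexes I, III, IV and V followed each other, with Spearman correlations of 0.68 to 0.79 between pairs. Complex II correlated with these 4 at -0.03 to 0.35. Among its members, Sdha stood at 287 CPM in clone 16, 325 in the median clone and 341 in clone 20, and Sdhc at 70.0 in clone 26, 79.0 in the median clone and 89 in clone 16. In clone 17, Sdha (296 CPM) was below its median and Sdhb (95.1 CPM) above it.

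**Figure D5:**
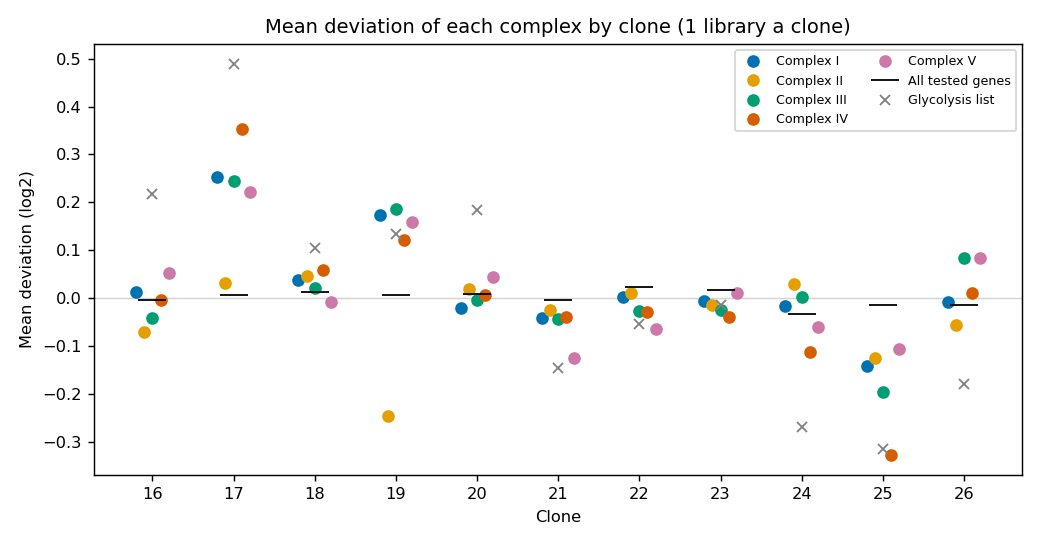
Score of each complex in each clone, the mean deviation of its subunits from the median clone in log2 units, with 1 coloured point per complex, a black dash for the mean over all tested genes and a grey cross for the glycolysis list. Complexes I, III, IV and V are highest in clone 17 (0.22 to 0.35), while complex II is at 0.03 there and lowest in clone 19 at -0.25.

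Other genes of respiration were read from lists of the pathway. Over all tested genes, the variable-gene test of edgeR called 7.68%, with 13.1% at an unadjusted p under 0.05. The clone test called 0.213% of all pairs. Of 44 tested assembly factors, which include the 8 Ndufaf members, 0 passed the variable-gene test of edgeR, also 0 at an unadjusted p under 0.05, and 2 were called in a clone. These were Cox15, an enzyme of heme A synthesis on chromosome 19, at 93.7 CPM in clone 17 and higher there, and Lrpprc, which stabilises mitochondrial messenger RNAs and lies on chromosome 17, at 139 CPM in clone 25 and lower there. Cytochrome c (Cycs) stood at 16 to 23.2 CPM and cytochrome c1 (Cyc1) at 157 to 280 CPM, and neither passed either test. Of 9 tested regulators and of 13 tested genes of mitochondrial DNA maintenance 0 varied, and their scores had Spearman correlations with the subunit score of 0.05 and 0.12. Among the regulators, Hcfc1 (586 ± 42.8 CPM) and Pprc1 (262 ± 48.8) had the highest counts, and the coactivator Ppargc1a was at 0 to 0.839 CPM. Among the maintenance genes, Polg, the mitochondrial DNA polymerase, was at 151 ± 15.2 CPM and Tfam, which packages mitochondrial DNA, at 111 ± 9.15.

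The tricarboxylic acid cycle list followed the subunits, with a Spearman correlation of 0.94 and its highest score, 0.34, in clone 17. Of its 17 genes, 1 was called variable, against 7.68% of all tested genes. This was Sucla2, a subunit of succinyl-CoA synthetase on chromosome 14, lowest in clone 21 (29.0 CPM) and highest in clone 17 (191 CPM). Pdha1, a subunit of pyruvate dehydrogenase, stood at 371 ± 76.2 CPM. Of 17 glycolysis genes, 5 were called variable, against 7.68% of all tested genes: Hk1, Pfkl, Pfkm, Tpi1 and Ldha. The members with the highest counts, the glucose transporter gene Slc2a3 (2751 ± 483 CPM) and the pyruvate kinase gene Pkm (2706 ± 433), were not called. Ldha, which reduces pyruvate to lactate, was lowest in clone 25 (233 CPM) and highest in clone 17 (686 CPM). The phosphofructokinase gene Pfkm, on chromosome 15 like Ndufa6, was lowest in clone 24 (42.2 CPM) and highest in clone 19 (187 CPM), and Hk1, the gene of hexokinase 1, was lowest in clone 24 (89.1 CPM) and highest in clone 17 (245 CPM).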

How the data were processed

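Raw read counts per gene were used as deposited by the authors, 1 column per clone. The submitters' processing notes name Bowtie 0.12.7, TopHat 1.4.0 and the builds mm9 and hg19; the sources used here do not give the counting tool or strand setting. Total RNA was made into TruSeq RNA libraries, per the labels' protocols. Symbols (20777 of 22369 genes), gene order and transcript lengths were taken from GENCODE vM21 (GRCm38); mm9 is an older build, so no gene coordinates are printed beside counts.

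CPM used TMM library sizes (factors 0.971 to 1.04) in edgeR 4.0.16 (R 4.3.3). The variable-gene test was a goodness-of-fit test of a negative binomial model with 1 mean per gene and trended dispersion (common coefficient of variation 24.8%), and the clone test was the quasi-likelihood test, adjusted over 137269 pairs by Benjamini-Hochberg; SEs were derived from its F statistic. With 1 library per clone, p-values measure the spread between these libraries only, and counting floors cover counting error only. Neighbours needed a mean of 5 CPM. DESeq2 1.42.0 gave alternatives; the rest ran in Python 3.11.15 with matplotlib 3.10.9, pandas 2.3.3 and NumPy 2.4.6. The scripts were checked on simulated data. The members, lists, tests and alternatives were chosen with earlier results of these data known. Some items are not reported here. Named genes are called members, per complex the extremes in level and spread, members in shifted neighbourhoods, paralogue pairs, and per list the 2 of highest count and at most 3 called; Cycs, Ppargc1a, Ndufa1, Atp5j, Cox7a2 and Cox6b1 were also named with values seen.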

Additional observations from a re-analysis of the deposited data

How the results depend on the processing

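Over all alternatives run, the median deviation in shifted neighbourhoods ranged from 0.56 to 0.81 and the median correlation with the own complex from 0.29 to 0.61, both above 0 throughout. The number of variable members fell from 2 to 1 at a mean of at least 5 CPM (Cox6a2 is below it) and to 1 with the dispersion trend of DESeq2, and leaving out 1 clone gave 0 to 2. With no filter the number stayed at 2, but Cox6a2 was no longer called (edgeR adjusted p of 0.0742) and another matched gene was. The number of called pairs rose from 3 to 9 with the DESeq2 Wald test and was 0 to 4 with 1 clone left out, 0 of them without clone 17. With 1 clone left out, the range of the score over clones was 0.28 to 0.40 for complex I, 0.19 to 0.30 for complex II (lowest without clone 19), 0.28 to 0.44 for complex III, 0.45 to 0.68 for complex IV and 0.30 to 0.43 for all subunits (lowest without clone 25 or, for complex IV, clone 17), and that of complex II was 0.14 without the member in a shifted neighbourhood. With the union of exons as length, a choice made after the data were seen, the medians per kb were 34.0, 57.0, 55.6, 42.9 and 42.6 for complexes I to V. Results not named here stayed on their side of the threshold or moved by less than the spread between clones, except the calls of single genes given above. No paired analysis was possible because the labels give only 1 group. At 1 library per clone, low genes such as Cox6a2, Cox8b and Cox8c rest on few counts.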
